A study of Homo sapiens with 40 samples.

Results

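CENP-A ChIP-Seq peaks from a pair of double knockdowns were set against each other. SW480 cells, an established human colorectal adenocarcinoma line, were treated for 72 h with siRNA against HIRA and DAXX together, or against HIRA and HJURP together. HIRA was depleted in both, so the comparison asks how ectopic CENP-A differs when the chaperone lost beside HIRA is DAXX and when it is HJURP. All peaks of both merged lists were used, 1018 for HIRA+DAXX and 1582 for HIRA+HJURP, which are 2600 of the 5748 peaks in the 6 lists of the series. The other 4 lists come from siRNA against HIRA, DAXX or HJURP alone and from control cells, which the sample labels call untreated and the study describes as given control siRNA. Native chromatin was released with MNase and precipitated with anti-centromere serum, which recognises other centromere proteins beside CENP-A. Each double knockdown list merges 2 ChIP libraries with 2 matching inputs, and each of the other lists merges 4 ChIP libraries. Both double knockdowns were sequenced as single reads to similar totals. A list holds the chromosome, start and end of each peak on hg19, with no height, score or library of origin. The spread between libraries could therefore not be measured and no difference was tested. Shares are given with 95% Wilson intervals and ratios of peak numbers with 95% exact binomial intervals, and both cover counting error only.

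CENP-A is the histone H3 variant that marks the chromatin on which the kinetochore is built. HJURP is its dedicated chaperone and delivers newly made CENP-A to centromeres after mitosis. HIRA and DAXX are chaperones of the variant H3.3. HIRA works with UBN1 and CABIN1 at genes and regulatory elements, and DAXX works with ATRX at telomeric and pericentromeric repeats. Human centromeres lie on alpha satellite, a tandem repeat of short monomers, some of which carry the CENP-B box bound by CENP-B, searched here on both strands by its 9 fixed bases, TTCGNNNNANNCGGG. Many flanking regions hold satellites II and III, which are built from diverged copies of the pentamer CATTC, read as GAATG on the opposite strand.

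Peaks were called ectopic when they shared no base with a centromere band of hg19, and shared when at least 1 base lay in a peak of the other list. Windows of 300 bases from the centres of the widest peaks within 5 Mb of a centromere band show the kinds of sequence involved. They were taken from the plus strand of hg19, with each CATTC or GAATG in capitals, and none lies in an annotated gene. The widest shared peak was a HIRA+HJURP peak of 13451 bp at chr21:10708930-10722380, and 9 HIRA+DAXX peaks lay within its span or across its edge. The widest HIRA+HJURP peak with no HIRA+DAXX base spanned 1235 bp at chr21:10727115-10728349. The widest HIRA+DAXX peak with no HIRA+HJURP base spanned 812 bp at chr21:10824545-10825356. Both lay close to a peak of the other double knockdown, with gaps of 837 and 86 bp, and both were present in each of the other 4 lists.
Shared, chr21:10715505-10715804 (hg19, plus strand): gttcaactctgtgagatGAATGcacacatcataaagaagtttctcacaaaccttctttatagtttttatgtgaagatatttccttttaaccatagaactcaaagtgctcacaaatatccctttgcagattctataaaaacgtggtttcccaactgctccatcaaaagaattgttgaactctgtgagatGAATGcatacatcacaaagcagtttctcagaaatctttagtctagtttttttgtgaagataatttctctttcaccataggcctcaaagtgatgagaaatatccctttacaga
HIRA+HJURP alone, chr21:10727582-10727881 (hg19, plus strand): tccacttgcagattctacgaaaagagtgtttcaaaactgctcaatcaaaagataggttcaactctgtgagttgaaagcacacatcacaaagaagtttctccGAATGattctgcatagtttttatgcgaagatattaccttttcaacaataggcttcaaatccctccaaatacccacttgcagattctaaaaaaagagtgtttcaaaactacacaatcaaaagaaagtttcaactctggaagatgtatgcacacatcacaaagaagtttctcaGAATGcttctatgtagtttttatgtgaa
HIRA+DAXX alone, chr21:10824801-10825100 (hg19, plus strand): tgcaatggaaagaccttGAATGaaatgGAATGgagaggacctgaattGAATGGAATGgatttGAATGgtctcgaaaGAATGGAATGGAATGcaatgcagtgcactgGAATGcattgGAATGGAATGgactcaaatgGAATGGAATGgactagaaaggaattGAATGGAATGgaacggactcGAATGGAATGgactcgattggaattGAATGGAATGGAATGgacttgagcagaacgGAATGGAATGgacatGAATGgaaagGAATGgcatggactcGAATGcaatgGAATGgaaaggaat
The first and second windows hold 2 pentamers each. Over the 800 bases around those peak centres, 58.3% and 64.7% of bases were identical to the base that follows at the spacing of alpha satellite monomers. The third window holds 26 pentamers, covering 43.3% of its bases. Of these peaks within 5 Mb of a centromere band, the HIRA+DAXX one with no HIRA+HJURP base was thus rich in the pentamer, and the HIRA+HJURP one with no HIRA+DAXX base had the monomer spacing of alpha satellite. The second window does not stand for most of its kind. Among all unshared peaks near centromere bands, 14.8% of 216 HIRA+HJURP and 2.27% of 88 HIRA+DAXX peaks had at least 60% identity at that spacing.

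HIRA+HJURP had 1205 ectopic peaks and HIRA+DAXX had 759, a ratio of 1.59 (1.45 to 1.74). The covered length differed more than the number, at 633 kb for HIRA+HJURP against 301 kb for HIRA+DAXX, or 2.10 times. The median width was nearly the same, 293 bp against 285 bp, and the lists parted in their wide peaks. In HIRA+HJURP, 127 ectopic peaks (10.5%) were at least 1000 bp wide and held 43.6% of the covered length. In HIRA+DAXX, 38 peaks (5.01%) reached that width and held 20.2% of the covered length. The widest ectopic peak spanned 13451 bp in HIRA+HJURP and 3949 bp in HIRA+DAXX. At the narrow end the order turned, with 10% of HIRA+HJURP peaks at or below 124 bp and 10% of HIRA+DAXX peaks at or below 145 bp. The HIRA+HJURP list thus held both more narrow peaks and more wide ones. Merging of more libraries goes with wider peaks in this series. The ectopic peaks of the other 4 lists had medians of 750 to 902 bp, so their widths are not set against those of the double knockdowns.

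By an overlap of 1 base, most HIRA+DAXX ectopic peaks lay where HIRA+HJURP also had a peak, and HIRA+HJURP ectopic peaks were shared less often. Of the 759 HIRA+DAXX ectopic peaks, 601 shared a base with HIRA+HJURP, which is 79.2% (76.2 to 81.9%), and 158 (20.8%) did not. Of the 1205 HIRA+HJURP ectopic peaks, 534 shared a base with HIRA+DAXX, which is 44.3% (41.5 to 47.1%), and 671 (55.7%) did not. When the overlap had to cover 50% of both peaks, 46.1% of HIRA+DAXX and 29.0% of HIRA+HJURP ectopic peaks were shared. By bases, 237 kb lay in both lists, which was 78.9% of the HIRA+DAXX length and 37.5% of the HIRA+HJURP length. Unshared peaks were the narrower ones in both lists, which the rule itself favours, as a wider peak more easily shares 1 base. Shared HIRA+DAXX peaks had a median of 324 bp and unshared ones 211.5 bp, and the HIRA+HJURP medians were 352 bp and 256 bp. Most unshared HIRA+DAXX peaks lay close to a HIRA+HJURP peak, with 91 of 158 (57.6%) within 1000 bp of one. Among the unshared HIRA+HJURP peaks, 226 of 671 (33.7%) lay that close to a HIRA+DAXX peak, and the median gap was 2556.5 bp. Some peaks met several of the other list. Of the 1205 HIRA+HJURP ectopic peaks, 60 touched more than 1 HIRA+DAXX peak, up to 9 at a time, and of the 759 HIRA+DAXX ectopic peaks, 32 touched more than 1 HIRA+HJURP peak, up to 4. In 8q24 the numbers were 37 of 475 and 7 of 220, and outside it 23 of 730 and 25 of 539.

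The excess of HIRA+HJURP was spread unequally over the genome. Peaks were divided by place into centromere bands, the 5 Mb on each side of a band, band 8q24 on the long arm of chromosome 8, and the rest of the chromosome arms. The region 8q24 holds MYC, which encodes a transcription factor that drives proliferation, and a series of long noncoding RNA genes before and after it. HIRA+HJURP had 475 peaks in 8q24 and HIRA+DAXX had 220, a ratio of 2.16 (1.84 to 2.54), and the covered length was 386 kb against 106 kb, a ratio of 3.63. Of the 446 ectopic peaks by which HIRA+HJURP exceeded HIRA+DAXX, 8q24 accounted for 255 (57.2%). Of the difference of 331 kb in length, it accounted for 279 kb (84.3%). Outside 8q24, HIRA+HJURP had 730 ectopic peaks and HIRA+DAXX had 539, a ratio of 1.35 (1.21 to 1.52), and the lengths were 247 kb and 195 kb, a ratio of 1.27. Thus 8q24 held 39.4% (36.7 to 42.2%) of HIRA+HJURP ectopic peaks and 29.0% (25.9 to 32.3%) of HIRA+DAXX ectopic peaks. The order turned when peaks of a list within 10000 bp were merged first, to 21% and 28.1%, and merging within 1000 bp brought the shares to 37.8% and 34.5%. Among peaks at least 500 bp wide the shares were 68.0% and 40.7%.

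**Figure D1:**
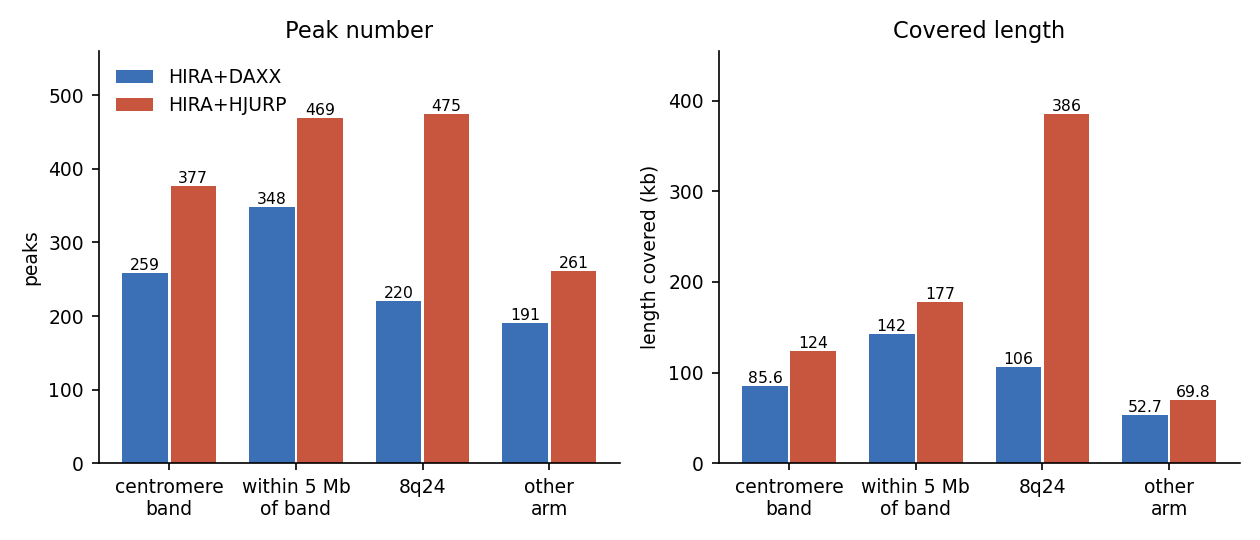
Number of peaks (left) and covered length in kb (right) of the HIRA+DAXX and HIRA+HJURP lists in centromere bands, within 5 Mb of a band, in 8q24 and on the remaining chromosome arms. HIRA+HJURP is higher in every class, and the lists stand furthest apart in the covered length of 8q24, 386 kb against 106 kb.

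Within 5 Mb of a centromere band there were 469 HIRA+HJURP and 348 HIRA+DAXX peaks, a ratio of 1.35 (1.17 to 1.55), covering 177 and 142 kb. On the remaining arms there were 261 and 191 peaks, a ratio of 1.37 (1.13 to 1.66), covering 69.8 and 52.7 kb. The centromere bands themselves held 377 and 259 peaks, a ratio of 1.46 (1.24 to 1.71), covering 124 and 85.6 kb. Outside 8q24 the number ratios of these classes lay within each other's intervals. Widths went the other way there. The median ectopic peak outside 8q24 was 216.5 bp wide in HIRA+HJURP and 254 bp in HIRA+DAXX, whereas in 8q24 it was 487 bp in HIRA+HJURP and 352 bp in HIRA+DAXX. The excess in number outside 8q24 lay in narrow peaks, and the excess in length did not lie in narrow peaks alone. Among peaks at least 300 bp wide, the ratio of ectopic peak numbers outside 8q24 was 1.05 and the ratio of covered length 1.20, and in 8q24 the ratio of numbers was 2.60. Of the 23 chromosomes with an ectopic peak in either list, 18 had more peaks in HIRA+HJURP, 3 had equal numbers and 2 had fewer. The chromosomes with fewer were chromosome 6, with 1 against 2, and chromosome 12, with 21 against 26. By covered length, 15 chromosomes had more in HIRA+HJURP and 8 had less, among them chromosome 2, at 0.773 times the length of HIRA+DAXX, and chromosome 16, at 0.982 times.

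Sharing also differed by place. In 8q24, 202 of 220 HIRA+DAXX peaks (91.8%, 87.4 to 94.8%) shared a base with HIRA+HJURP, and 140 of 475 HIRA+HJURP peaks (29.5%, 25.6 to 33.7%) shared a base with HIRA+DAXX. Outside 8q24 the shares were 74.0% (70.2 to 77.5%) of 539 HIRA+DAXX peaks and 54.0% (50.3 to 57.6%) of 730 HIRA+HJURP peaks. In 8q24 the HIRA+DAXX list was therefore nearly contained in the HIRA+HJURP list, and 93.0% of its bases there lay in HIRA+HJURP peaks. The other 18 HIRA+DAXX peaks of 8q24 were no wider than 375 bp, all lay in introns, and 11 of them lay within 1000 bp of a HIRA+HJURP peak. The 335 unshared HIRA+HJURP peaks of 8q24 covered 169 kb, more than all 220 HIRA+DAXX peaks of the region.

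**Figure D2:**
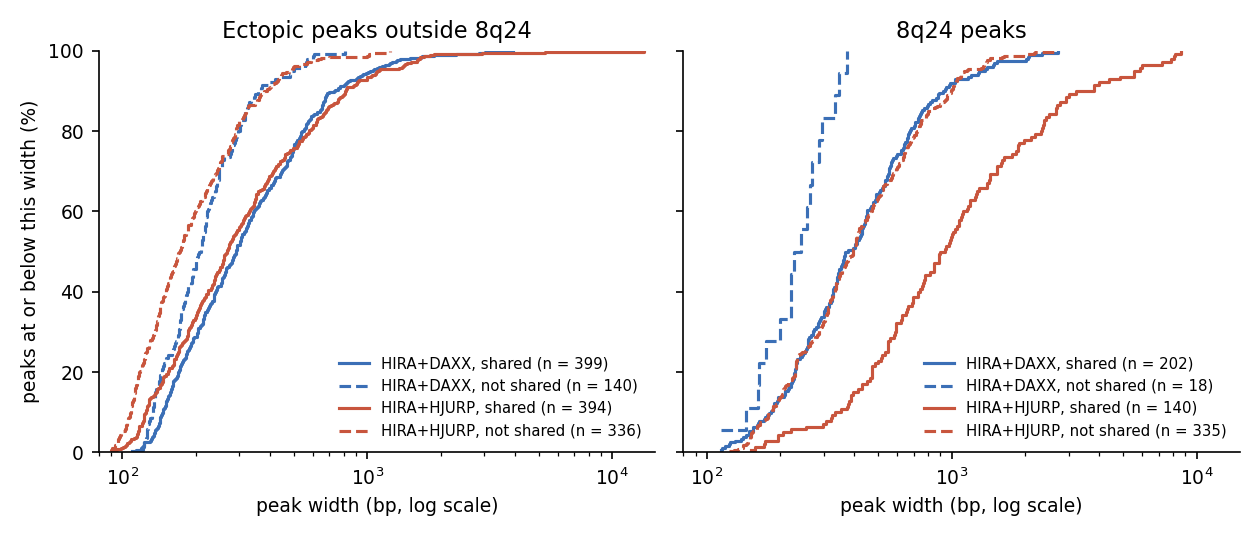
Cumulative share of peaks (percent, vertical axis) at or below each width (bp, log scale) for shared peaks (solid lines) and peaks not shared (dashed lines) of each list, outside 8q24 (left) and in 8q24 (right). Shared HIRA+HJURP peaks of 8q24 stand apart with a median of 919.5 bp, and the unshared HIRA+HJURP peaks there, with a median of 397 bp, follow nearly the same curve as the shared HIRA+DAXX peaks, with a median of 373.5 bp.

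Sites where a single peak of one list met a single peak of the other allow a comparison of width at the same place. There were 415 such ectopic pairs, with a median distance of 24 bp between peak centres. By place, this median was 137.75 bp in 8q24, 20 bp near centromere bands and 9.75 bp on the remaining arms. In 8q24 the HIRA+HJURP peak was the wider one in 82 of 92 pairs (89.1%, 81.1 to 94.0%), with a median width ratio of 2.17 (quartiles 1.45 and 3.297). Near centromere bands it was wider in 86 of 199 pairs (43.2%, 36.5 to 50.2%), with a median ratio of 0.953. On the remaining arms it was wider in 48 of 124 pairs (38.7%, 30.6 to 47.5%), also with a median ratio of 0.953. Many of these arm pairs lay in 1 stretch, chr16:46385772-46500161, where 58 of 63 HIRA+DAXX and 64 of 67 HIRA+HJURP peaks were shared. The HIRA+HJURP peak was the narrower one in nearly all pairs there, and more often the wider one in the other arm pairs. At the same sites near centromere bands, then, the HIRA+HJURP peaks were as wide as the HIRA+DAXX peaks or slightly narrower. On the remaining arms the direction depended on the chromosome 16 stretch. The HIRA+DAXX peak lay wholly inside the HIRA+HJURP peak in 62 of the 92 pairs of 8q24, and the reverse held in 2.

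**Figure D3:**
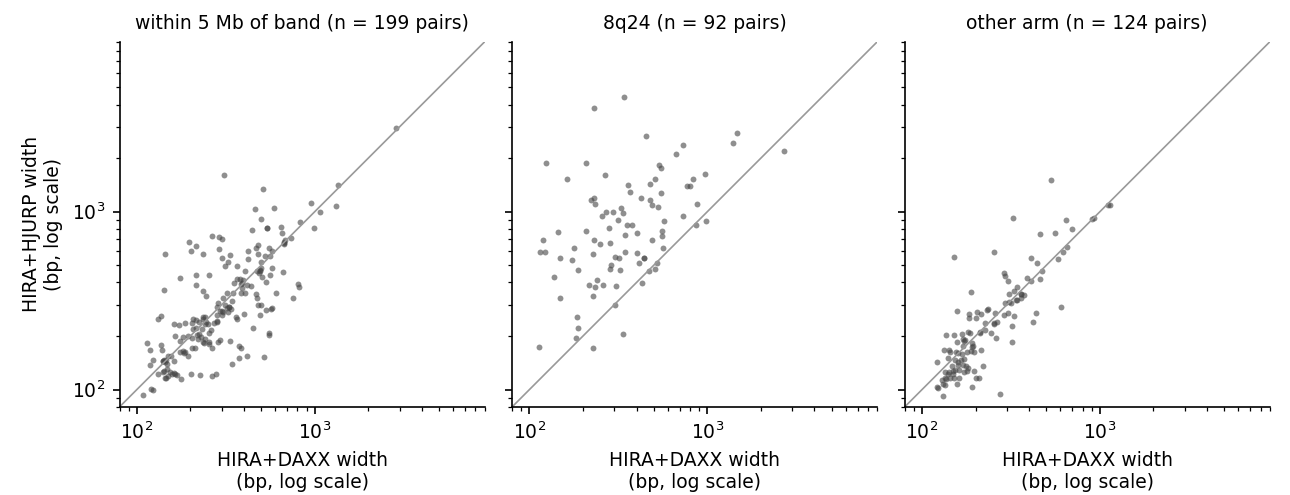
Width of the HIRA+HJURP peak (vertical axis, bp, log scale) against width of the HIRA+DAXX peak (horizontal axis, bp, log scale) at sites where 1 peak of each list meet, with equal width as the grey line. Points scatter about the line near centromere bands and on the other arms, and lie above it in 82 of 92 pairs in 8q24.

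The peaks of 8q24 spanned nearly the same segment in both lists, chr8:126685244-129617249 in HIRA+DAXX and chr8:126683802-129617235 in HIRA+HJURP. Along this segment HIRA+HJURP covered more bases in each of the 25 bins of 100 kb that held a peak of either list. In the 22 bins with peaks of both, the ratio of covered length ran from 1.97 to 14.5, with a median of 4.64. Peak number was higher in HIRA+HJURP in 23 bins and lower in 2. From 128.0 to 128.1 Mb, HIRA+DAXX had 47 peaks covering 31.1 kb and HIRA+HJURP had 44 covering 67.1 kb. From 129.6 to 129.7 Mb, HIRA+DAXX had 10 peaks covering 5.98 kb and HIRA+HJURP had 3 covering 16.99 kb. Fewer peaks there thus went with more covered sequence, in fewer and wider peaks. When peaks of a list within 10000 bp were merged first, the ratio of 8q24 peak numbers fell to 0.894, from 2.16. In 8q24 the median gap between neighbouring peaks was 824 bp in HIRA+HJURP and 1621 bp in HIRA+DAXX.

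**Figure D4:**
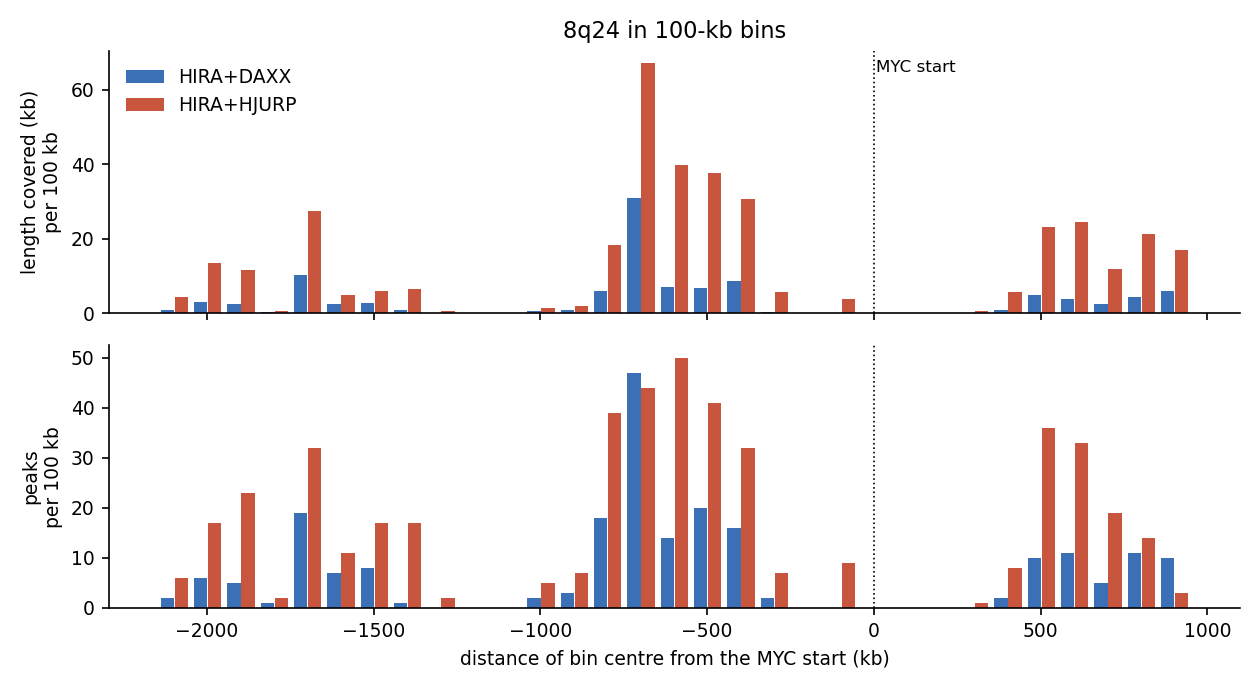
Covered length in kb (top) and number of peaks (bottom) per 100 kb of 8q24 in the HIRA+DAXX and HIRA+HJURP lists, by distance in kb of the bin centre from the MYC start site (dotted line). HIRA+HJURP covers more in each of the 25 bins with a peak, the tallest pair of bars is 67.1 against 31.1 kb, and the bin with the MYC start is empty in both lists.

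MYC (chr8:128747680-128755197, plus strand) carried no peak in either list. The nearest HIRA+HJURP peak lay 71.4 kb away and the nearest HIRA+DAXX peak 335 kb away. Between 128.6 and 128.7 Mb, upstream of MYC, HIRA+HJURP had 9 peaks covering 3.76 kb where HIRA+DAXX had none. The DAXX and HJURP single knockdown lists had 8 and 7 peaks in that bin, and the control and HIRA lists had none. PVT1, the long noncoding RNA gene that follows MYC (chr8:128806772-129199347, plus strand), had 9 HIRA+HJURP and 2 HIRA+DAXX peaks.

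PCAT1 (chr8:127568568-128431295, plus strand), a prostate cancer associated transcript, held 225 HIRA+HJURP peaks covering 203 kb and 122 HIRA+DAXX peaks covering 61.2 kb, the most of any annotated gene. LINC00861 (chr8:126871965-127305033, minus strand) held 73 and 38 peaks, a ratio of covered length of 2.51. CASC19 (chr8:128084939-128239786, minus strand), which overlaps PCAT1, held 72 and 36 peaks, a ratio of covered length of 4.31. LINC02964 (chr8:126660571-127021174, plus strand) held 60 and 17 peaks, and its ratio of covered length, 5.12, was the highest among these 5 genes. CASC8 (chr8:128302053-128494384, minus strand) held 38 and 16 peaks, a ratio of 4.44. All 5 are long noncoding RNA genes. Of 24 genes listed for the region, 18 were found in the annotation by name and 9 held a peak in each list. HIRA+HJURP had more peaks in 8 of these 9 and equal numbers in CCAT2, with 1 each. These genes are not separate places, so 1 peak can count for several of them. PRNCR1 lies within PCAT1 and CASC19, and CASC8, POU5F1B and CCAT2 overlap PCAT1. TRIB1, NSMCE2, LRATD2, CASC11, MYC, CCDC26, GSDMC, CYRIB and ASAP1 had no peak in either list. Of the 18 listed genes for CENP-A assembly and the centromere, among them CENPA, HJURP, HIRA, DAXX and CENPB, none held a peak in either list. In the whole annotation, 109 of 64449 genes (0.169%) held an ectopic peak of either list.

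The widest peaks of 8q24 show the same contrast. The widest HIRA+HJURP peak there, 8625 bp at chr8:128065005-128073629 in an intron of PCAT1, met 6 HIRA+DAXX peaks that covered 50.5% of it. The next, 8186 bp at chr8:128225408-128233593, reached an exon of CASC19 and met 6 HIRA+DAXX peaks that covered 25.9% of it. The widest HIRA+DAXX peak of the region, 2711 bp at chr8:128015877-128018587 in an intron of PCAT1, was an exception, as the HIRA+HJURP peak there was narrower, 2185 bp. The next, 2336 bp at chr8:128042475-128044810, lay inside a HIRA+HJURP peak of 7870 bp. The widest HIRA+HJURP peaks without HIRA+DAXX spanned 2608 bp at chr8:128005246-128007853 in PCAT1 and 2184 bp at chr8:126688096-126690279 in LINC02964. The widest HIRA+DAXX peaks without HIRA+HJURP spanned 375 bp at chr8:128339291-128339665, in introns of PCAT1, CASC8 and POU5F1B, and 346 bp at chr8:127221061-127221406 in an intron of LINC00861. Most 8q24 peaks of both lists were intronic, 334 of 475 (70.3%) in HIRA+HJURP and 164 of 220 (74.5%) in HIRA+DAXX, and introns make up 74.7% of the bases of the segment that the peaks span. Within 1000 bp of an annotated start site lay 9.05% and 12.3% of them.

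Outside 8q24, ectopic peaks of both lists crowded into few places. Peaks less than 1 Mb apart were joined into 63 clusters, and the 25 clusters with 5 or more peaks held 518 of the 539 HIRA+DAXX and 688 of the 730 HIRA+HJURP peaks. HIRA+HJURP had more peaks in 21 of these 25 and fewer in 4. The biggest cluster, on the short arm of chromosome 21 at chr21:9450182-10889165, held 136 HIRA+HJURP and 111 HIRA+DAXX peaks covering 77.0 and 59.6 kb. Across the chromosome 21 centromere at chr21:14338323-14368647 the numbers were 27 and 12. At chr7:61739355-62004713 they were 68 and 44, and at chr20:29583477-29829722 they were 48 and 27, of which 21 and 9 lay in the pseudogene FRG1BP. Other large clusters were equal or close to it. At chr10:42354950-42667773 the numbers were 66 and 62 and at chr16:46385772-46500161 they were 67 and 63, with covered lengths 0.911 and 0.874 times those of HIRA+DAXX. At chr2:89830455-90381460, HIRA+HJURP had 31 peaks and HIRA+DAXX 33, with 0.716 times the covered length. These clusters and genes outside 8q24 were picked after their values were seen.

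Ectopic peaks outside 8q24 were also divided by sequence. Windows of 300 bases around the centre of each peak were counted as pentamer satellite when they held 10 or more CATTC or GAATG. This threshold was chosen after seeing the data. Most of these peaks were narrower than the window in both lists, so their windows also held sequence flanking the peak. HIRA+HJURP windows held more of it at the median, where a peak spanned 216.5 bp, against 254 bp for HIRA+DAXX. Over the whole genome, 0.0471% of 9528558 windows of that length without unknown bases reached it. Outside 8q24, HIRA+HJURP had 221 such ectopic peaks and HIRA+DAXX had 216, a ratio of 1.02 (0.844 to 1.24), and the covered length was 0.831 times that of HIRA+DAXX. Among the ectopic peaks below the threshold there were 509 and 323, a ratio of 1.58 (1.37 to 1.82), and the covered length was 1.59 times that of HIRA+DAXX. The excess of HIRA+HJURP outside 8q24 was thus found in peaks whose windows were not pentamer satellite. In the centromere bands there were 82 and 70 pentamer satellite peaks, a ratio of 1.17 (0.841 to 1.64), and 295 and 189 others, a ratio of 1.56 (1.30 to 1.88), and these intervals overlap. In 8q24 no peak reached the threshold, 0 of 220 in HIRA+DAXX and 0 of 475 in HIRA+HJURP, which allows shares of up to 1.72% and 0.802%.

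The unshared peaks of the lists differed most near centromere bands. Near centromere bands, 55 of 88 unshared HIRA+DAXX peaks (62.5%, 52.1 to 71.9%) were pentamer satellite, against 45 of 216 unshared HIRA+HJURP peaks (20.8%, 16.0 to 26.7%). Shared peaks lay between these, at 38.5% of 260 in HIRA+DAXX and 42.7% of 253 in HIRA+HJURP. On the remaining arms, shared peaks were pentamer satellite in 38.8% of HIRA+DAXX and 43.3% of HIRA+HJURP cases, and unshared peaks in 13.5% (6.68 to 25.3%) and 5.83% (2.85 to 11.6%). The cluster at chr16:46385772-46500161 counts among these arms. It held 58 of the 139 shared HIRA+DAXX and 64 of the 141 shared HIRA+HJURP arm peaks, so the shares do not describe the arms evenly. In centromere bands, 29.2% of shared HIRA+DAXX and 34.0% of shared HIRA+HJURP peaks were pentamer satellite, and 17.02% and 7.47% of unshared ones. The fixed bases of the CENP-B box were sought in the same windows of 300 bases. In centromere bands the box was present for 22.4% (17.7 to 27.9%) of 259 HIRA+DAXX and 14.9% (11.6 to 18.8%) of 377 HIRA+HJURP peaks. It was present in 0.0192% of genome windows. Among ectopic peaks outside 8q24 it was present in 4.08% and 4.79%, and in 8q24 in none. Over the 800 bases around the peak centre, identity of at least 60% at the monomer spacing was found in 16.6% and 17.8% of centromere band peaks. It was found in 8.33% and 11.7% of those near a band, in none of 8q24, and in 0.0542% of genome windows of 800 bases. The median G+C content of the central windows was 36.3% for HIRA+DAXX and 36.7% for HIRA+HJURP ectopic peaks, against a mean of 40.9% over the genome. Satellite sequence was thus common in and around the peaks outside 8q24 in both lists and was not found in 8q24 by these measures.

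Among the widest peaks near centromere bands, chr21:10697934-10703256 was a HIRA+HJURP peak of 5323 bp that met 4 HIRA+DAXX peaks, and chr10:42354950-42358898 was a HIRA+DAXX peak of 3949 bp that met 3 HIRA+HJURP peaks. The HIRA+DAXX peak of 3022 bp at chr21:10718203-10721224 lay inside the HIRA+HJURP peak of 13451 bp. The next widest unshared peaks were both on chromosome 21, 1198 bp at chr21:10760492-10761689 in HIRA+HJURP and 604 bp at chr21:10857766-10858369 in HIRA+DAXX, with gaps of 115 and 336 bp to the other list. The widest unshared centromere band peaks were 1709 bp at chr7:61544576-61546284 and 619 bp at chr19:24567313-24567931 in HIRA+HJURP, and 497 bp at chr15:20569769-20570265 and 473 bp at chr2:92269333-92269805 in HIRA+DAXX. None of these peaks lay in an annotated gene.

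On the remaining arms, 82 of 191 HIRA+DAXX peaks (42.9%) and 99 of 261 HIRA+HJURP peaks (37.9%) lay within 1 Mb of an assembly gap of at least 1 Mb. The widest shared peaks were 1870 bp at chr16:46390602-46392471 and 1144 bp at chr16:46427280-46428423 in HIRA+DAXX, and 1597 bp at chr4:68264226-68265822 and 1513 bp at chr9:68420087-68421599 in HIRA+HJURP. The widest unshared HIRA+HJURP peaks were 1055 bp at chrY:59001813-59002867 and 1019 bp at chr1:142535482-142536500. All 6 lie outside annotated genes. The widest unshared HIRA+DAXX peaks were 569 bp at chr12:26919262-26919830, in an intron of ITPR2, which encodes an inositol trisphosphate receptor, and 325 bp at chr12:25440532-25440856, outside genes. Both belong to a stretch of chromosome 12 where the lists shared least. In the cluster at chr12:21892017-27412855, 1 of 25 HIRA+DAXX peaks and 1 of 20 HIRA+HJURP peaks shared a base with the other list, and the median gap of the rest to the other list was 71.1 and 77.0 kb. Among the 25 large clusters, the share of HIRA+DAXX peaks met by HIRA+HJURP ranged from 4% here to 100%.

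The other 4 lists give a readout that the division into shared and unshared peaks did not use. Those lists merge more libraries and hold wider peaks, which raises the chance of an overlap in every category. They also hold fewer peaks, 408 to 952, and the study's rule keeps a peak only where most replicates called one. Both can lower that chance, and the rule used for the double knockdowns is not given. HIRA depletion is common to the HIRA list and both double knockdowns. Shared peaks were also wider than unshared ones, which raises their own chance of an overlap. The HIRA+HJURP medians were 919.5 bp for shared and 397 bp for unshared peaks in 8q24, and 267 and 171.5 bp outside it. In 8q24, shared peaks were present in nearly all cases in the DAXX list (98.5% of 202 HIRA+DAXX and 97.9% of 140 HIRA+HJURP peaks) and in the HJURP list (98.0% and 97.1%). The 335 HIRA+HJURP peaks of 8q24 not shared with HIRA+DAXX were present in 84.5% of cases (80.2 to 88.0%) in the DAXX list and in 80% (75.4 to 83.9%) in the HJURP list. In the HIRA list 22.1% of them (17.98 to 26.8%) were present, and in control 4.18% (2.51 to 6.89%). The shared peaks were present in the HIRA list in 76.7% of HIRA+DAXX and 73.6% of HIRA+HJURP cases, and in control in 43.1% and 39.3%. The lists differ in size in 8q24, where DAXX covers 575 kb, HJURP 566 kb, HIRA 225 kb and control 84.5 kb, and the percents are not corrected for this. In each of the 4 lists the sites in 8q24 that HIRA+HJURP had beyond HIRA+DAXX were present less often than the shared sites, with the widest gaps in the HIRA and control lists. Of these 335 peaks, 27 (8.06%) met no peak in any of the other 4 lists.

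**Figure D5:**
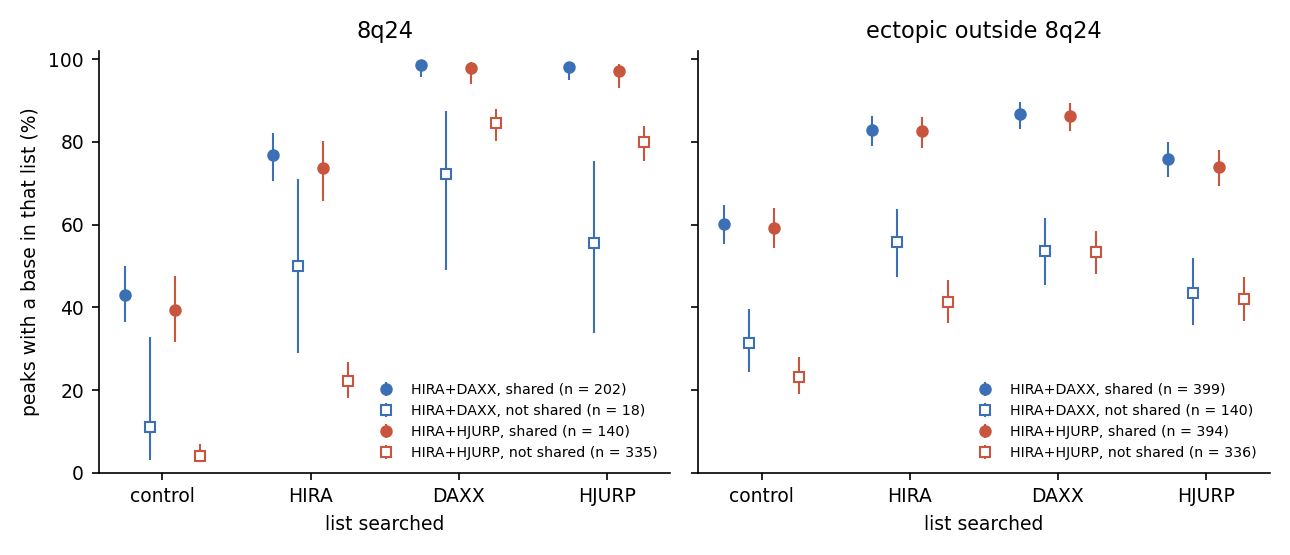
Percent of peaks (vertical axis) with at least 1 base in the control, HIRA, DAXX or HJURP list, for shared (filled circles) and unshared (open squares) peaks of HIRA+DAXX and HIRA+HJURP in 8q24 (left) and outside it (right), with 95% Wilson intervals. In 8q24 the unshared HIRA+HJURP peaks are at 84.5% and 80% in the DAXX and HJURP lists and at 22.1% and 4.18% in the HIRA and control lists.

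Outside 8q24 the unshared HIRA+HJURP peaks were less often found in the DAXX and HJURP lists than in 8q24, and more often in the HIRA and control lists. Of 336 unshared HIRA+HJURP peaks, 53.3% were present in the DAXX list, 41.96% in the HJURP list, 41.4% (36.2 to 46.7%) in the HIRA list and 23.2% in control. Of 140 unshared HIRA+DAXX peaks, 53.6% were present in the DAXX list, 43.6% in the HJURP list, 55.7% (47.4 to 63.7%) in the HIRA list and 31.4% in control. The 18 unshared HIRA+DAXX peaks of 8q24 are too few to set beside these, as their intervals overlap those outside 8q24 for each of the 4 lists. Peaks found in none of the other 4 lists made up 34.8% (29.9 to 40.1%) of the 336 unshared HIRA+HJURP and 35.7% (28.3 to 43.9%) of the 140 unshared HIRA+DAXX peaks outside 8q24. Shared peaks outside 8q24 were absent from all 4 in 9.14% of HIRA+HJURP and 8.52% of HIRA+DAXX cases.

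Read from the other side, HIRA+HJURP met more of the peaks of each other list than HIRA+DAXX did, in 8q24 and outside it. Of 389 DAXX list peaks in 8q24, 292 (75.1%, 70.5 to 79.1%) met a HIRA+HJURP peak and 121 (31.1%, 26.7 to 35.9%) met a HIRA+DAXX peak. For the 372 HJURP list peaks of the region the values were 271 (72.8%) and 116 (31.2%), and for the 156 HIRA list peaks 141 (90.4%) and 103 (66.0%). Of the 81 control peaks of 8q24, 80 met a HIRA+HJURP peak and 68 a HIRA+DAXX peak. Outside 8q24 the lists stood closer, with 69.7% of 370 DAXX list peaks met by HIRA+HJURP and 59.2% by HIRA+DAXX. HIRA+HJURP covers 3.63 times the length of HIRA+DAXX in 8q24, which raises its chance of meeting a peak of any list there. Copy number along 8q24 was not analysed here.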

How the data were processed

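CENP-A ChIP-Seq of SW480 cells was compared between 2 merged peak lists, HIRA+DAXX and HIRA+HJURP. Per the labels and the study's methods, the authors used Trimmomatic for trimming, Bowtie2 2.2.6 for alignment to hg19, SAMtools to filter on mapping quality and MACS for peaks of each ChIP library over its input, after which bedtools joined replicate peaks. The rule for keeping a merged peak in the double knockdowns is not given in the sources used here. The deposited columns are peak start and end, in bases, without a score, count or replicate, so depth per peak is unknown and no difference was tested.

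Peaks outside the centromere bands of hg19 counted as ectopic. Band positions were written from general knowledge. The members and lists were chosen with earlier results of these data known. Overlaps needed 1 base. Coverage is the sum of end minus start. Named regions are taken from, for each of 4 classes of place, the 2 widest shared and 2 widest unshared peaks of each list. Named genes are MYC, PVT1, the 5 annotated genes with the most ectopic peaks and members of the gene lists. FRG1BP, ITPR2, SOX5, ZNF717, KMT2C and DHX32 were picked after their values were seen. The sequences shown are from the widest ectopic peak of each kind outside chromosome 8. Genes are from GENCODE release 44 on GRCh37, and sequence is from GRCh37. The share of bases in annotated repeats was planned and not computed, as the sequence used carries no repeat mask. Python 3.11.15, numpy 2.4.6, scipy 1.17.1, pysam 0.24.0 and matplotlib 3.10.9 were used, and the overlap and sequence functions were tested on simulated data. Alternatives changed the centromere boundary, peak width, merging, chromosomes, overlap rule and 8q24 limits.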

Additional observations from a re-analysis of the deposited data

How the results depend on the processing

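HIRA+HJURP stayed above HIRA+DAXX in ectopic peak number and coverage, in both outside 8q24, and in centromere band coverage under each alternative tried. The ratio of median widths, 1.03, fell below 1 under 2 of them, to 0.854 without chromosome 8 and 0.707 with peaks within 10000 bp merged. The ratio of ectopic peak numbers was 1.93 with peaks of at least 500 bp, 1.20 with peaks within 10000 bp merged, 1.35 without chromosome 8 and 1.79 without peaks within 5 Mb of a centromere band, and the ratio of coverage was 1.26 without chromosome 8. Outside 8q24 the ratio of numbers was 1.05 and 1.04 with peaks of at least 300 and 500 bp. The ratio of 8q24 numbers was 2.60 and 3.22 with those minimum widths, 1.60 with peaks within 1000 bp merged and 0.894, below 1, within 10000 bp, a setting that joins the closely spaced HIRA+HJURP peaks there. In the same order of lists (HIRA+DAXX, then HIRA+HJURP), the percent of ectopic peaks in 8q24 was 21.6 and 30.0 with assembly gaps as boundary and with all deposited peaks, 38.3 and 60.4 at 300 bp, 40.7 and 68.0 at 500 bp, 53.5 and 64.5 away from centromere bands, and 22.4 and 28.8 for 8q24 taken as within 1 Mb of MYC. With peaks within 1000 bp merged it was 34.5 and 37.8, and within 10000 bp 28.1 and 21, which turns the order. The percent of shared peaks was 75.6 and 36.2 with overlap of 50% of the own width, 46.1 and 29.0 with 50% of both peaks, 91.2 and 63.1 with peaks extended by 500 bp, 74.9 and 50.5 with peaks within 10000 bp merged, 74.0 and 54.2 without chromosome 8, and 83.0 and 38.2 away from centromere bands. It was 70.5 and 43.1 without the widest 1% of peaks, 79.3 and 41.1 at 300 bp, and 81.4 and 34.0 at 500 bp. Beyond joining and the peaks each setting leaves out, the cause was not tested. Thresholds of 5 and 20 pentamers, chosen after seeing the data, gave 1.02 and 1.05 for satellite peaks and 1.62 and 1.43 for the others. No paired analysis was possible because each list merges its libraries. No library could be left out for the same reason, and reads in satellite repeats may map to several places, which these lists do not show.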

Other observations

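The stretch of chromosome 12 in which the double knockdowns shared least was examined in all 6 lists. Over its 5.52 Mb, control had 0 peaks, HIRA 60, HJURP 32, HIRA+DAXX 25, DAXX 21 and HIRA+HJURP 20. HIRA+DAXX and HIRA+HJURP seldom met another list there. Of the 25 HIRA+DAXX peaks, 2 shared a base with HIRA, 3 with HJURP and 1 with DAXX, and of the 20 HIRA+HJURP peaks, 4 shared a base with HIRA, 1 with HJURP and 0 with DAXX. The most common overlap was between HIRA and HJURP, with 12 of the 60 HIRA and 11 of the 32 HJURP peaks. Most of the peaks lay in genes, 22 of 25 in HIRA+DAXX and 17 of 20 in HIRA+HJURP. The counts for the other lists with peaks were 44 of 60 in HIRA, 15 of 21 in DAXX and 29 of 32 in HJURP. The genes include SOX5, 1033 kb long, with 6 HIRA+DAXX and 4 HIRA+HJURP peaks, and ITPR2, 498 kb long, with 4 and 1. The share of the stretch that lies in genes was not computed, so an excess of peaks in genes was not tested. The median peak width there was 214 bp for HIRA+DAXX and 170.5 bp for HIRA+HJURP. The stretch and both genes were picked after their values were seen, and copy number along it was not analysed here.

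Outside the clusters at 8q24 and on chromosome 12, gene peaks of the lists differed in both directions. ZNF717 on chromosome 3, a zinc finger gene, had 7 HIRA+HJURP peaks and 1 HIRA+DAXX peak, and KMT2C on chromosome 7, which encodes a histone methyltransferase, had 3 and 6. DHX32 on chromosome 10, a helicase gene, had 7 in each. In all, 109 of 64449 annotated genes (0.169%) held an ectopic peak of either list. Of these, 47 held one in both lists, 43 in HIRA+HJURP alone and 19 in HIRA+DAXX alone. The lists differ in size, with 1205 HIRA+HJURP and 759 HIRA+DAXX ectopic peaks, of which 55.7% and 20.8% were unshared. Genes that overlap each count the same peak. Whether reads of these genes also map to copies elsewhere in the genome was not analysed here.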
